A study of Homo sapiens with 12 samples.

Results

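The BCL2 family decides at the surface of the mitochondrion whether a stressed cell lives or dies, and 10 of its genes were followed in myeloma cells given NGI-1, a small molecule inhibitor of the oligosaccharyltransferase complex that attaches N-glycans to new proteins. The genes were chosen by symbol from the 59276 features of the deposited expression table, and every one of the 10 was found there. They were the survival genes BCL2, MCL1 and BCL2L1, the BH3-only genes BCL2L11, BBC3, PMAIP1, BID and BAD, and the effector genes BAX and BAK1. The rule named symbols and held no measured value, but it was written with earlier results of these data known.

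Total RNA was sequenced from MM1S, an established human multiple myeloma line, in 4 groups of 3 libraries. Untreated cells carried the label day 0, and cells in 10 μM NGI-1 were harvested on day 2, day 3 or day 5. The labels name NGI-1 as the treatment of the day 0 libraries as well, and these libraries were taken as untreated because the study calls them so. The labels do not say whether a vehicle was added to them or at what time they were taken. No untreated library carries the label of day 2, 3 or 5, so NGI-1 and time in culture cannot be told apart. Nothing in the labels says that the 3 libraries of a group came from separate cultures, so p-values here measure the spread between libraries, which may be technical. MM1S is a single line, and the values describe bulk RNA. In it, fewer cells expressing a gene and less of its RNA in each cell cannot be told apart.

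Proteins of this family share short BH motifs and act by binding each other. The survival proteins BCL2, MCL1 and BCL-XL (from BCL2L1) hold the BH3-only proteins and the effectors in check. BH3-only proteins such as BIM (from BCL2L11), PUMA (from BBC3), NOXA (from PMAIP1), BID and BAD occupy the groove of the survival proteins, and BIM, PUMA and the cleaved form of BID can also engage the effectors. BAX and BAK (from BAK1) then form pores in the mitochondrial outer membrane and release cytochrome c, which activates the caspases. Plasma cells and most myelomas depend on MCL1, a short-lived protein, and NOXA binds MCL1 in particular. Much of this control acts on protein level, cleavage and location, none of which RNA shows.

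Positions are on GRCh38, the build named for the files, and were taken from GENCODE release 29. The survival genes are BCL2 (chr18:63123346-63320128, minus strand), MCL1 (chr1:150574551-150579738, minus strand) and BCL2L1 (chr20:31664452-31723989, minus strand). The BH3-only genes are BCL2L11 (chr2:111119378-111168447, plus strand), BBC3 (chr19:47220822-47232766, minus strand), PMAIP1 (chr18:59899948-59904306, plus strand), BID (chr22:17734138-17774770, minus strand) and BAD (chr11:64269830-64284704, minus strand). The effector genes are BAX (chr19:48954815-48961798, plus strand) and BAK1 (chr6:33572547-33580293, minus strand). BCL2L11 lies within the opposite-strand gene MIR4435-2HG, which was at a mean TPM of 122 in untreated cells and 74.9 on day 5, and BAD overlaps the opposite-strand gene GPR137, at 7.20 and 2.73 TPM. How strand was treated in counting is not given in the sources used here, so reads of these partners and of the 2 members may not be told apart. The table gives 1 value per gene, so long and short forms of MCL1, BCL2L1 and BCL2L11, which differ in activity, were not separated.

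Promoters of 2 BH3-only genes and of both effector genes, which were called lower, are shown so that their start regions can be compared. On the deposited scale PMAIP1 was called higher on days 3 and 5, and BCL2L11 on days 2 and 3. BBC3 and BCL2, called higher on every day, are not printed. In the window searched, the BBC3 promoter held 1 E-box and no GC box, and the BCL2 promoter held 1 CRE core and no GC box. RefSeq promoter sequence (GRCh38.p14) was at hand for 9 of the 10 genes, with several starts for BCL2L1, BID and BAD, and MCL1 was the gene with none. The 150 bases before the annotated start are printed 5′ to 3′ on the strand of the gene: PMAIP1 at chr18:59899846-59899995, BCL2L11 at chr2:111120764-111120913, BAX at chr19:48954725-48954874 and BAK1 at chr6:33580277-33580426. The start used is the RefSeq one. By the GENCODE positions above, the BCL2L11 window lies inside the gene and the other windows reach into their genes. Capitals mark GGGCGG (the GC box), CACGTG (the E-box) and TGACG (the core of the cAMP response element, CRE) on either strand.
PMAIP1: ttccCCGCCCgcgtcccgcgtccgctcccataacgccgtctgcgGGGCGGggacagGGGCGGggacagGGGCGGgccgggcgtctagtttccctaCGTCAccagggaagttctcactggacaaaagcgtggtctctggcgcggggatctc
BCL2L11: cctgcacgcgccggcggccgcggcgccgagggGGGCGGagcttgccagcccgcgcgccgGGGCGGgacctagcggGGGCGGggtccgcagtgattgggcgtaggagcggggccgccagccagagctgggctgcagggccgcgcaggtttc
BAX: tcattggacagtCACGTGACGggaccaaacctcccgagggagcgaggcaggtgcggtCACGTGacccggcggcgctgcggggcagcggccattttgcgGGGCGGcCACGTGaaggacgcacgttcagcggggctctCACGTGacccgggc
BAK1: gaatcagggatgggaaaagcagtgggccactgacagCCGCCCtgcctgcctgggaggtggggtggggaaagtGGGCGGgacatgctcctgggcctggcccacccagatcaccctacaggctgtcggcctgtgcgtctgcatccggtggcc

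The full windows of 250 bases before to 50 after each start were searched. BAX held 4 E-boxes, 1 of them overlapping a CRE core, and PMAIP1 held 4 GC boxes and 1 CRE core. Of all 35116 promoters searched, 7.26% held an E-box and 0.664% held 2 or more. Among the members, an E-box was in at least 1 promoter of 3 of the 9 genes, BAX, BBC3 and BID. A GC box was in 44.95% of all promoters and in at least 1 promoter of 7 of the 9 genes, and a CRE core was in 24.6% and in 5 of the 9 genes. TATAAA was in 11.5% of promoters and in a BCL2L1 promoter alone among these genes. TGATGNAA, the combined C/EBP and ATF element, and the full CRE TGACGTCA, in 3.62% and 1.85% of promoters, were in none of the 9 genes within these windows. The shares are per promoter, while a gene with several starts was counted if any of them matched. The gene counts therefore cannot be compared directly with the shares. These are matches of letters, and no binding was measured.

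The libraries carried the markers of plasma cells throughout, and their composition moved with treatment. All 11 plasma cell and myeloma markers were at 1 TPM or more in every group, with a summed level of 12159 to 28465 TPM over the libraries. JCHAIN made up most of that sum, at a mean of 9697 TPM untreated and 23656 TPM on day 3. The markers did not all move alike, as XBP1, of the same list, went from 1547 TPM untreated to 366 TPM on day 5. None of the monocyte, early B cell, erythroid and stromal markers reached a mean of 1 TPM in any group. Of 5 T cell markers, CD3E alone did, and the summed level of that list was 3.01 to 3.49 TPM in untreated libraries and 3.73 to 7.77 TPM in treated ones. The epithelial list, led by KRT18, summed to 14.5 to 18.4 TPM in untreated libraries, to 23.5 to 26.6 TPM on day 2, above all of these, and to 9.79 to 11.9 TPM on day 3 and 6.47 to 9.70 TPM on day 5, below them. Ribosomal protein genes took 28.5% to 29.6% of all TPM in the untreated libraries, a mean of 34.0% on day 2, 42.8% on day 3 and 48.8% ± 0.876 (SD, n = 3) on day 5, and the median of all tested features fell by 0.18, 0.73 and 0.99 on the log2 scale against untreated cells, and the part of this shift in the members' values was not tested beyond the rescaling described next. Because TPM sums to the same total in every library, each member is given on the deposited scale and again after the libraries were rescaled to a common median. For each of the 5433 features whose mean TPM was 10 or more, its mean log2 level over the libraries was subtracted. The log2 factor of each library was the median of its deviations. Replicate 2 of day 3 and replicate 3 of day 5 needed less rescaling than the other libraries of their groups, with log2 factors of -0.17 against -0.31 and -0.38, and of -0.44 against -0.80 and -0.69, and their part in the results is given where it changes one.

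MCL1 RNA exceeded that of every other member in all 12 libraries, at a mean of 352 TPM ± 25.5 (SD, n = 3) in untreated cells. TPM is scaled per length, so levels can be compared between genes. In untreated cells the order ran from MCL1 through BAX (127 TPM), BAK1 (77.2), BID (45.4), BCL2L1 (38.5) and BAD (29.9) to BCL2L11 (10.5), PMAIP1 (10.4), BCL2 (3.81) and BBC3 (2.31). The ranges of BCL2L11 and PMAIP1 overlapped, and those of all other neighbours in this order did not. By day 5 the order had closed up below MCL1: the ranges overlapped between every pair of neighbours from BAX, at 30.0 TPM, down to BCL2L1, at 11.4 TPM. PMAIP1 stood at rank 8 in untreated cells and rank 3 on day 5, and BAK1 at rank 3 and rank 7.

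**Figure D1:**
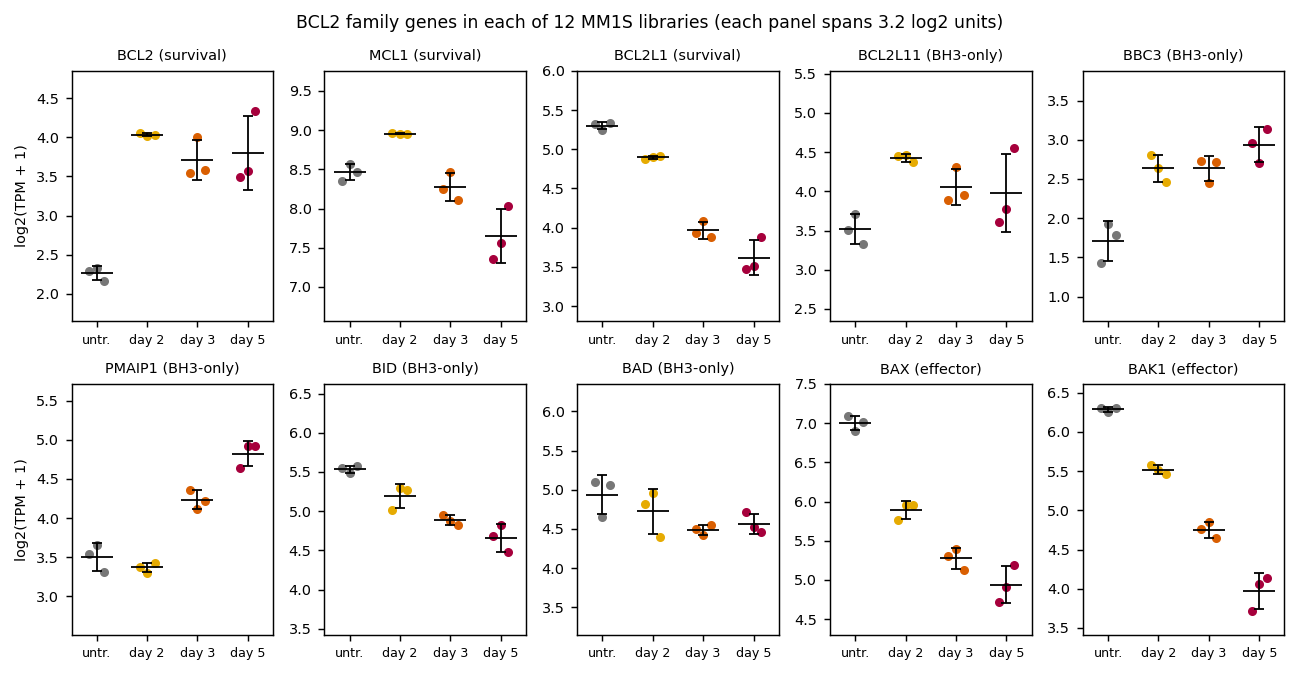
Each dot is 1 library, on the deposited log2(TPM + 1) scale, in untreated cells and on days 2, 3 and 5 of NGI-1, with the group mean and SD (n = 3). BCL2 and BBC3 sat above all untreated libraries on every day, PMAIP1 did so on days 3 and 5, and BAX and BAK1 sat below all untreated libraries on every day.

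All 10 genes passed the filter, which kept the 11939 features that reached 1 TPM in 3 or more libraries. Features were called by limma at a Benjamini-Hochberg adjusted p under 0.05 over all of these and a log2 difference over 0.5 in size. On day 2, 3 members were called higher and 2 lower, where 8.03% and 23.2% of all features were called in those directions. On day 3, 4 were called higher and 4 lower, against 7.59% and 61.5% of all features. On day 5, 3 were called higher and 5 lower, against 7.73% and 69.8%. The median log2 difference over the 10 members was -0.17, -0.32 and -0.59 on the 3 days, beside -0.18, -0.73 and -0.99 over all features tested. After rescaling, 4 members were called higher and 2 lower on day 2, with 12.9% and 11.4% of all features, 5 higher and 3 lower on day 3, with 23.9% and 24.2%, and 5 higher and 3 lower on day 5, with 27.5% and 26.9%. The 3 treated groups share the untreated libraries, so the days are not independent of each other.

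**Figure D2:**
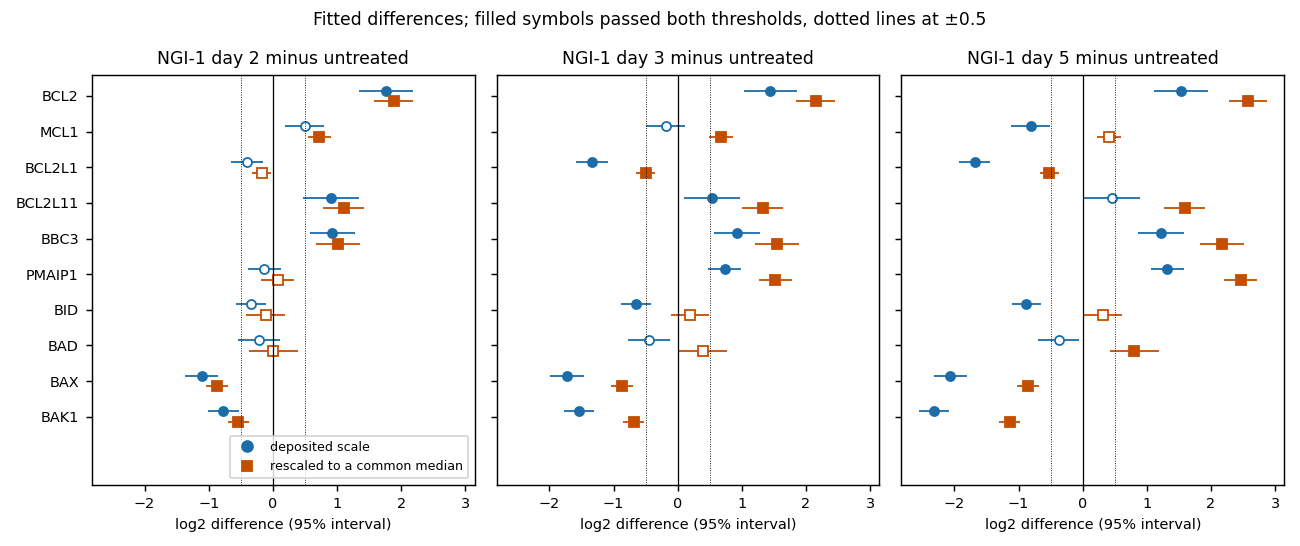
Log2 difference of each member from untreated cells on days 2, 3 and 5 with its 95% interval, on the deposited scale (circles) and after rescaling to a common median (squares), where filled symbols passed both thresholds. BCL2, BBC3, BAX and BAK1 were called in 1 direction on all days and both scales, while MCL1, BID and BAD changed side between the scales on days 3 and 5.

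BCL2, the survival gene that venetoclax targets as a protein, rose from a low level. It stood at 3.92, 4.04 and 3.48 TPM in the untreated libraries and at 15.6, 15.2 and 15.3 TPM on day 2. On day 3 the libraries were at 10.6, 14.98 and 11.02 TPM, and on day 5 at 10.2, 10.8 and 19.2 TPM. Every treated library lay above every untreated one, and the spread widened on the later days through replicate 2 of day 3 and replicate 3 of day 5. Mean TPM was 4.03 times the untreated mean on day 2, 3.204 times on day 3 and 3.52 times on day 5. On the log2(TPM + 1) scale the differences were 1.77, 1.44 and 1.53 (SE 0.193 each), with limma adjusted p of 8.76e-06, 1.16e-05 and 4.57e-06. Rescaling placed BCL2 higher still, at 1.88, 2.15 and 2.58.

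MCL1, the survival gene on which myeloma cells lean most, was at 327, 378 and 352 TPM in the untreated libraries. Day 2 brought the 3 libraries to 498, 495 and 495 TPM, all above the untreated ones. Day 3 gave 303, 352 and 274 TPM, overlapping the untreated range, and day 5 gave 163, 188 and 261 TPM, all below it. The day 2 difference of 0.49 (SE 0.139) had a limma adjusted p of 0.0108 but did not exceed the size threshold, and it did so without untreated replicate 2, at 0.55. Day 3 gave -0.19, which did not pass the test, at an adjusted p of 0.223. Day 5 was called lower, at -0.81 and an adjusted p of 8.95e-05 on the deposited scale, but lay above untreated cells at 0.41 after rescaling and missed the size threshold, at -0.49, when the 20 most abundant features were left out before scaling. After rescaling MCL1 was called higher on day 2, at 0.73, and on day 3, at 0.68, so its direction on days 3 and 5 depends on the scale.

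BCL2L1, which encodes BCL-XL, was called lower on days 3 and 5. Untreated libraries held 39.0, 37.0 and 39.3 TPM, and day 2 libraries 28.4, 28.8 and 29.2 TPM. Levels were 14.2, 16.0 and 13.8 TPM on day 3 and 10.1, 10.4 and 13.7 TPM on day 5. No treated library reached the untreated range, and each day lay below the one before it. The difference of -0.40 on day 2 fell short of the size threshold. Those of -1.34 (SE 0.113, limma adjusted p = 1.69e-07) on day 3 and -1.68 (adjusted p = 8.94e-09) on day 5 passed, and so did the rescaled values of -0.50 and -0.52.

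Among the BH3-only genes, BCL2L11, which encodes BIM, rose on day 2 together with BCL2. It was at 10.4, 12.1 and 9.07 TPM untreated and at 20.9, 21.1 and 19.7 TPM on day 2. Day 3 libraries held 13.9, 18.9 and 14.5 TPM, and day 5 libraries 11.2, 12.7 and 22.4 TPM. Days 2 and 3 lay above the untreated range, while replicate 1 of day 5 fell within it and replicate 3 of day 5 was the highest of all 12. The day 2 difference was 0.91 (SE 0.203, limma adjusted p = 0.00258). The day 3 difference of 0.54 passed at an adjusted p of 0.0259, a call that was lost without untreated replicate 1 (adjusted p = 0.0554), without untreated replicate 3 (0.0925) or without day 3 replicate 2 (0.105), and also with no filter on low values (0.0895). Day 5, at 0.46 with an adjusted p of 0.0462, did not exceed the size threshold. It did so without untreated replicate 2 (0.56), day 5 replicate 1 (0.65) or day 5 replicate 2 (0.56), and stood at 0.18 without day 5 replicate 3. Rescaled, BCL2L11 was called higher on all 3 days, at 1.10, 1.33 and 1.59.

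BBC3, which encodes PUMA, was the least abundant member and was called higher on every day. The untreated libraries were at 1.68, 2.80 and 2.44 TPM, and those of day 2 at 6.02, 5.22 and 4.53 TPM. They were at 5.66, 4.47 and 5.59 TPM on day 3 and at 6.81, 5.50 and 7.82 TPM on day 5. No treated library overlapped the untreated ones, and the 3 days overlapped among themselves. The differences were 0.93 (SE 0.165, limma adjusted p = 0.000519), 0.92 (adjusted p = 0.000155) and 1.22 (adjusted p = 8.63e-06), with rescaled values of 1.02, 1.55 and 2.18. With 1 TPM added before the log, these differences understate the change of so low a gene, and mean TPM was 2.28, 2.27 and 2.91 times the untreated mean.

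PMAIP1, which encodes the MCL1 partner NOXA, moved late. The untreated libraries held 10.6, 11.6 and 8.92 TPM and those of day 2 held 9.41, 8.88 and 9.75 TPM, which overlap. Levels then stood at 19.5, 16.4 and 17.7 TPM on day 3 and at 23.8, 29.2 and 29.2 TPM on day 5. Each later day lay wholly above the one before it. The day 2 difference was -0.13 (limma adjusted p = 0.396, 95% interval -0.39 to 0.13). Day 3 gave 0.73 (SE 0.121, adjusted p = 8.35e-05) and day 5 gave 1.32 (adjusted p = 1.87e-07), or 1.72 and 2.64 times the untreated mean TPM. The rescaled values were 0.08, 1.52 and 2.47.

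BID, whose product is cut by caspase-8 to join the death receptor route to mitochondria, was at 45.9, 43.8 and 46.5 TPM untreated and at 31.5, 38.1 and 37.7 TPM on day 2. It was at 29.9, 28.4 and 27.4 TPM on day 3 and at 24.6, 27.3 and 21.2 TPM on day 5, with every treated library under the untreated ones. On the deposited scale BID was called lower on day 3, at -0.65 (SE 0.107, limma adjusted p = 7.77e-05), and on day 5, at -0.88 (adjusted p = 3.24e-06), but the rescaled differences were 0.19 and 0.31 and did not pass. The day 3 call missed the size threshold, at -0.41, with the 20 most abundant features left out.

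BAD, whose product is held by 14-3-3 proteins when growth factor signals phosphorylate it, was not called on any day on the deposited scale. Its untreated libraries were spread from 24.1 to 33.3 TPM, those of day 2 from 20.1 to 30.1, those of day 3 from 20.5 to 22.4 and those of day 5 from 21.0 to 25.2. The differences were -0.21, -0.45 and -0.37 (SE 0.151), and untreated replicate 2 was the low library of its group. Without it BAD was called lower, at -0.59 on day 3 and -0.52 on day 5, whereas after rescaling BAD lay at 0.01 and 0.39 and was called higher on day 5, at 0.81.

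Both effector genes fell on every day and on both scales. BAX stood at 135, 119 and 129 TPM in untreated cells and at 53.4, 61.2 and 60.9 TPM on day 2. Its libraries were at 38.6, 40.9 and 34.0 TPM on day 3 and at 25.2, 29.2 and 35.6 TPM on day 5. The lowest untreated library held more BAX than any treated one, and days 3 and 5 overlapped. The differences were -1.11, -1.73 and -2.06 (SE 0.120), with limma adjusted p of 7.84e-06, 2.59e-08 and 2.17e-09. After rescaling they were nearly equal across days, at -0.88, -0.87 and -0.86.

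BAK1 was at 78.1, 75.2 and 78.3 TPM in untreated cells and at 46.8, 44.8 and 43.01 TPM on day 2. It went to 26.2, 27.9 and 24.0 TPM on day 3 and to 12.1, 15.6 and 16.7 TPM on day 5. The 4 groups did not overlap at any step. The differences were -0.77, -1.54 and -2.32 (SE 0.110), with limma adjusted p of 8.91e-05, 3.37e-08 and 3.08e-10, and mean TPM on day 5 was 0.192 of the untreated mean. The rescaled differences were -0.54, -0.69 and -1.13, all called.

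Contrasts between neighbouring days asked which members differed between days of treatment. Between day 2 and day 3, MCL1, BCL2L1, BAX and BAK1 were called lower and PMAIP1 higher, where 55.5% and 3.22% of all features were called in those directions. Between day 3 and day 5, MCL1 and BAK1 were called lower and PMAIP1 higher, against 13.1% and 0.670%. PMAIP1 differed by 0.86 (SE 0.121, limma adjusted p = 4.80e-05) and then by 0.59 (adjusted p = 0.00402). The day 5 against day 3 value of MCL1, -0.62, became -0.47 and was no longer called without day 5 replicate 1. After rescaling no member was called lower in either step, and BBC3 and PMAIP1 were called higher in both, with 14.3% of features called higher and 13.6% lower in the first step and 4.43% and 2.03% in the second. BBC3 was at 0.53 and 0.63 there, and PMAIP1 at 1.45 and 0.94. Rescaled BCL2L1 in the first step, at -0.33 (limma adjusted p = 0.00241), missed the size threshold only. So did rescaled BAK1 in the second step, at -0.45 (limma adjusted p = 0.00279).

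Ratios between 2 members in the same library do not depend on how the library was scaled, apart from the added TPM of 1. They are a description of 3 libraries per group with no test. Ratios given as multiples or fractions are geometric means of TPM ratios with nothing added, while ranges of log2 ratios are of TPM + 1, which draws the ratios of low members towards 0 on the log2 scale. BCL2L11 stood at 2.75 times BCL2 in untreated cells, and at 1.34, 1.29 and 1.15 times on days 2, 3 and 5. On the TPM + 1 scale the log2 ratio of BCL2L11 to BCL2 ranged from 1.17 to 1.38 in untreated libraries and from 0.13 to 0.45 over the treated ones, so the ranges were apart. Against BCL2L1 the order turned: BCL2L11 was at 0.272 of BCL2L1 untreated, at 0.713 on day 2, at 1.07 on day 3 and at 1.31 on day 5. Against MCL1, BCL2L11 remained a small fraction, at 0.0297 untreated and 0.0737 on day 5.

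The NOXA to MCL1 ratio changed course between days. PMAIP1 was at 0.0294 of MCL1 in untreated libraries, 0.0188 on day 2, 0.0578 on day 3 and 0.136 on day 5. The log2 ratio of TPM + 1 was -5.15 to -4.81 untreated, -5.65 to -5.53 on day 2, -4.35 to -3.88 on day 3 and -3.12 to -2.65 on day 5, with no overlap between groups. BBC3 to MCL1 went from 0.00642 to 0.0105, 0.0169 and 0.0332, and BCL2 to MCL1 from 0.0108 to 0.0310, 0.0391 and 0.0642. BCL2L1 to MCL1 stood at 0.109 untreated, and at 0.0581, 0.0474 and 0.0563 on the 3 days. BAX to BAK1 was 1.65 untreated, 1.30 on day 2, 1.45 on day 3 and 2.02 on day 5.

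**Figure D3:**
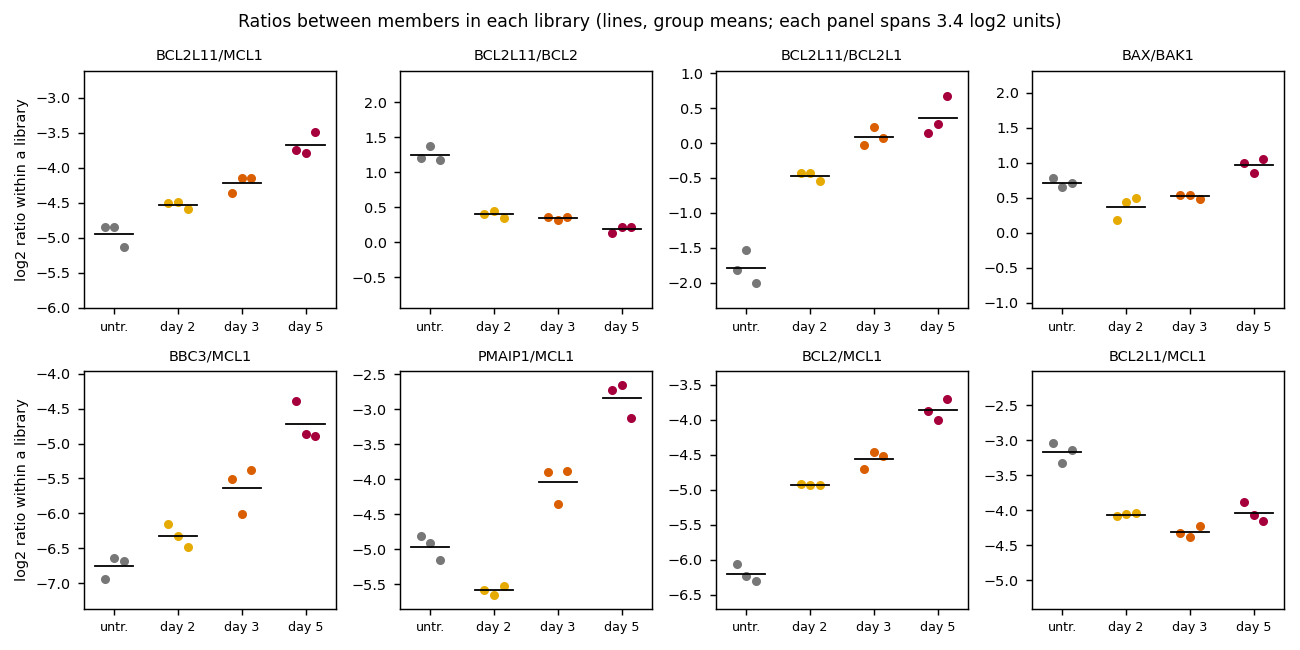
Log2 ratio of the TPM + 1 values of 2 members within each library (dots) with the group mean (lines), in untreated cells and on days 2, 3 and 5 of NGI-1. PMAIP1/MCL1 was lowest on day 2 and highest on day 5, and BCL2L11/BCL2L1 passed from -1.78 on average in untreated cells to 0.36 on day 5.

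Summed by role on the deposited scale, the BH3-only total stayed within a narrow range while that of the effectors dropped. The sums were not rescaled. On that scale the median log2 difference of all tested features from untreated cells was -0.18, -0.73 and -0.99 on days 2, 3 and 5. The 5 BH3-only genes summed to 98.6 TPM ± 3.86 (SD, n = 3) in untreated cells and to 96.7, 89.0 and 96.7 TPM on days 2, 3 and 5, and within that sum BCL2L11, BBC3 and PMAIP1 held a larger part on day 5 than in untreated cells and BID and BAD a smaller one. BAX and BAK1 summed to 205 TPM ± 9.85 untreated and to 103, 63.8 and 44.8 TPM ± 7.45 on day 5. The 3 survival genes, carried by MCL1, summed to 395, 540, 337 and 229 TPM. MCL1 alone held 50.5%, 67.0%, 63.2% and 54.7% of the TPM of all 10 genes, and PMAIP1 held 1.49%, 1.26%, 3.68% and 7.49%. The share of BAX was 18.3% untreated and 7.90%, 7.73% and 8.11% under NGI-1.

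**Figure D4:**
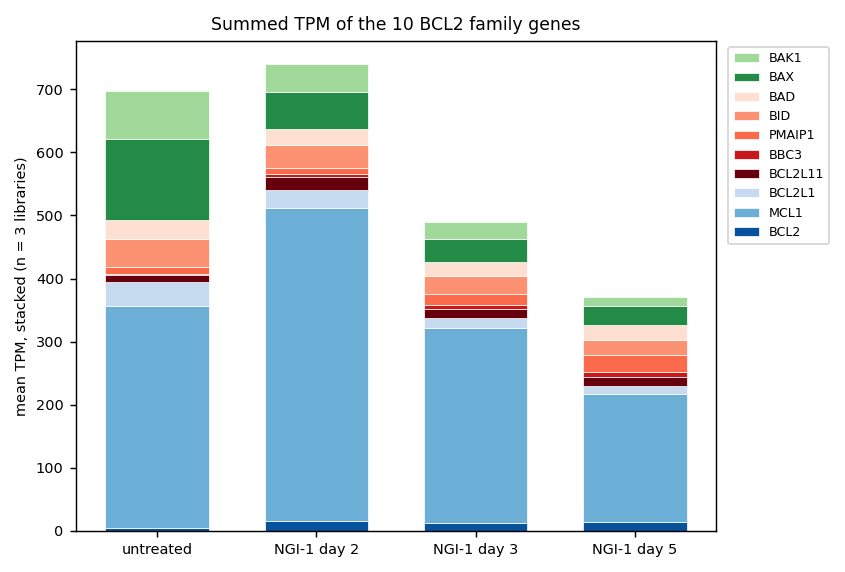
Mean TPM of the 10 genes on the deposited scale, stacked by group (n = 3 libraries each). Survival genes are in blue, BH3-only genes in red and effectors in green. MCL1 was the tallest block in every bar, and the summed TPM of all 10 was 698 in untreated cells, 740 on day 2, 489 on day 3 and 370.5 on day 5.

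The features whose rescaled levels ran most like the members, BID left out, over the 12 libraries are given as a description, from 5433 features and 4 groups that differ as a whole, so high values are common. BCL2 ran with FRMD6, TP53INP1 and BCL2L11 (Pearson r = 0.99 each), and BCL2L11 with BCL2, TP53INP1 and BTG1 (0.99, 0.99 and 0.98), so that these members were each among the 3 closest features of the other. BBC3 ran with ASNS, an asparagine synthetase gene, PNPLA8 and B9D1 (0.98 each). PMAIP1 ran with ATP5MPL, EAF2 and MRPS18C (0.99 each). BAX was closest to BANF1, PSMD4 and ODC1 (0.98, 0.98 and 0.97) and BAK1 to ISOC1, SOAT1 and SERBP1 (0.996, 0.988 and 0.984). MCL1 was closest to EIF2AK2, NBR1 and TSPAN13 (0.97, 0.96 and 0.96), BCL2L1 to KLHDC3, IKZF1 and WDR1 (0.99 each), and BAD to RPP21, TMEM223 and COX6A1 (0.97, 0.96 and 0.94).

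Other genes of the same machinery were read from lists written from general knowledge. Their day 5 counts stand beside 69.8% of all tested features called lower and 7.73% called higher on the deposited scale, and 26.9% lower and 27.5% higher after rescaling, with medians of -0.99 and -0.02. Of 15 further BCL2 family genes, 10 passed the filter, and 1 of them was called higher and 4 lower on day 5, with a median of -0.45. BCL2A1, which encodes the survival protein BFL1, had the largest rise, at 1.16 (SE 0.154, limma adjusted p = 7.69e-06), from 1.39 to 4.33 TPM. BCL2L12 had the largest fall, at -2.69, from 45.2 to 6.25 TPM. After rescaling 6 of the 10 were called higher and 1 lower on day 5, with BCL2A1 at 2.01 and BCL2L12 at -1.56.

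Genes of the outer membrane and of mitochondrial fission and fusion, on which BAX and BAK act, were all called lower on day 5 on the deposited scale, 11 of 11 with a median of -1.63 where 69.8% of all features were, and 5 of 11 after rescaling, where 26.9% of all features were. VDAC1, the main channel of the outer membrane, had the largest fall, at -2.88 on the deposited and -1.67 on the rescaled scale. MFN1, a fusion gene, had the highest value on both scales, at -0.81 on the deposited scale and at 0.32 rescaled, which was not called. Of 12 genes for cytochrome c, the apoptosome and what follows it, 11 were called lower on day 5 and 1 higher, with a median of -1.34, beside 69.8% and 7.73% of all features. The largest fall was in DFFA, the inhibitor of the caspase-activated nuclease, at -2.42 and rescaled at -1.29, and after rescaling 5 of the 12 were called lower and 1 higher, beside 26.9% and 27.5% of all features.

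Of 7 inhibitor of apoptosis genes, 5 passed the filter, and on day 5 there were 3 called lower and none higher on the deposited scale, and 1 lower and 2 higher after rescaling, with medians of -1.16 and -0.10. The shares of all features were 69.8% lower and 7.73% higher on the deposited scale, and 26.9% and 27.5% after rescaling. BIRC5, the survivin gene, which also serves cell division, had the largest fall, at -5.09, from 48.6 to 0.463 TPM. BIRC3 had the highest deposited value on day 5, 0.22, which did not pass, but it was called higher on day 3, at 0.78, and after rescaling on all 3 days, at 0.55 to 1.33. BIRC2, named after its values were seen, had the highest rescaled value on day 5, 1.37, which was called. Of 12 genes that govern the turnover of MCL1 and BIM proteins, 10 were called lower on day 5, with a median of -1.13, and 2 lower and 2 higher after rescaling, against those same shares of all features. UBE2J2 had the largest fall, at -1.80, and FBXW7, a ubiquitin ligase subunit that recognises MCL1, the highest value, at -0.25, which was not called, and 0.84 after rescaling, which was.

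Among 11 stress transcription factors known to act on BH3-only genes, 10 passed the filter, and 2 were called higher and 6 lower on day 5 with a median of -0.70, or 4 higher and 2 lower after rescaling, beside 7.73% higher and 69.8% lower over all features and 27.5% and 26.9% after rescaling. DDIT3, which encodes CHOP, had the largest rise, at 1.86 on day 5, from 11.3 to 43.6 TPM. E2F1 had the largest fall, at -3.71. No test of these lists as sets was made.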

How the data were processed

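MM1S cells were sequenced as total RNA, from 200 ng and to more than 60 M read pairs per library per the labels. The submitters' processing notes name FastQC, Trimmomatic, STAR, Salmon and hg38, with no versions. The deposited values are log2(TPM + 1) per gene symbol, made by the authors, and all libraries sum to the same total TPM. TPM keeps no counts, so depth gives no interval here and precision was read from the spread between 3 libraries.

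The 10 members, the gene lists and the tests were chosen with earlier results of these data known. Features reaching 1 TPM in 3 or more libraries were fitted with limma 3.58.1 (R 4.3.3): 1 mean per group over all 12 libraries, contrasts against untreated cells and between neighbouring days, two-sided moderated tests with a mean-variance trend and Benjamini-Hochberg adjustment within each contrast over 11939 features. The procedure was tested on simulated data. Alternatives were another pseudocount, other filters, rescaling, leaving out abundant features, pairwise fits, no trend, a larger fold threshold and each library left out in turn. All members were named. From each list the largest rise and fall on day 5 were named, except that a few genes, 1 gene list and the features most like BID are not reported here.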

Additional observations from a re-analysis of the deposited data

Results flagged for a closer look

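Members were marked for a closer look where the level differed between 2 neighbouring days of NGI-1 in its own contrast. This contrast tests a difference in level between those days, with time in culture included. From day 2 to day 3, on the deposited log2 scale, MCL1 differed by -0.68, BCL2L1 by -0.93, BAX by -0.62 and BAK1 by -0.77, while PMAIP1 differed by 0.86 in the other direction (limma adjusted p from 1.76e-05 to 0.00067). From day 3 to day 5, MCL1 differed by -0.62, BAK1 by -0.78 and PMAIP1 by 0.59 (adjusted p from 0.000401 to 0.00652). After rescaling to a common median, the PMAIP1 differences were 1.45 and 0.94 and were still called. Of the other differences named here, the rescaled values were between -0.45 and 0.0049 and none was called. Those of BCL2L1 from day 2 to day 3 and BAK1 from day 3 to day 5 missed the size threshold only. BBC3, not called in either step on the deposited scale, was called higher in both after rescaling, at 0.53 and 0.63. Groups of 3 libraries are too small for the test of single outlying libraries, which was not run.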

How the results depend on the processing

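No paired analysis was possible because the labels number the libraries H1 to H12 in 1 run and no number is shared between groups. The counts of called members stayed within 1.5 times of those reported with another pseudocount, with no filter or a TPM minimum of 5, with the 20 most abundant features left out, with pairwise fits and with no mean-variance trend. A fold threshold of 1 on the log2 scale left 1 member lower and 1 higher on day 2. It left 1 higher on day 3 and 3 lower on day 5. Both steps between neighbouring days kept 0 lower and 0 higher, as the largest member difference there was -0.93, for BCL2L1 from day 2 to day 3. The shares of all features at this threshold are not given here. Rescaling to a common median gave 3 lower and 5 higher on day 5. It gave 0 lower and 2 higher in each step between neighbouring days. The rescaled shares of all features were 26.9% lower and 27.5% higher on day 5. They were 13.6% and 14.3% from day 2 to day 3, and 2.03% and 4.43% from day 3 to day 5.

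Rescaling turned the direction of 17 of the 50 member values, and the cause was not tested beyond the shift in the median of all features. Against untreated cells the rescaled values were 0.076 for PMAIP1 and 0.010 for BAD on day 2, 0.68 for MCL1, 0.19 for BID and 0.39 for BAD on day 3, and 0.41 for MCL1, 0.31 for BID and 0.81 for BAD on day 5. From day 2 to day 3 they were 0.27 for BCL2, 0.23 for BCL2L11, 0.53 for BBC3, 0.31 for BID, 0.38 for BAD and 0.0049 for BAX, and from day 3 to day 5 they were 0.26 for BCL2L11, 0.12 for BID and 0.014 for BAX. Leaving out the 20 most abundant features placed MCL1 on day 3 at 0.062 and BBC3 from day 2 to day 3 at 0.14.

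With each library left out in turn, members called lower from day 3 to day 5 numbered 1 to 2, the lower count without replicate 1 of day 5. Sign changes among the values were limited to uncalled ones near 0: BBC3 from day 2 to day 3 ranged from -0.089 to 0.089, and from day 3 to day 5 BCL2 ranged from -0.18 to 0.24, BCL2L11 from -0.36 to 0.11 and BAD from -0.0016 to 0.12. With no pseudocount the day 5 minus untreated log2 ratio was -1.26 for BCL2L11/BCL2, 2.37 for BBC3/MCL1 and 2.57 for BCL2/MCL1, against -1.07, 2.04 and 2.34 with it. TPM keeps no depth, so what depth limits was not assessed for BBC3 and BCL2, the lowest members.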

Other observations

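Some genes outside the naming rule are given here because their values were seen first, so they support nothing and no test of them as a group was made. Among the further BCL2 family genes, BMF, BNIP3L and MOAP1 joined BCL2A1 in being called higher on day 2, where 8.03% of all features were. BMF, a BH3-only gene whose product is tied to the cytoskeleton in healthy cells, went from 13.0 TPM untreated to 22.5 on day 2, 10.2 on day 3 and 9.64 on day 5. BNIP3L, a receptor for the removal of mitochondria by autophagy, went from 22.1 to 34.2, 22.4 and 18.4 TPM, and MOAP1, whose product binds BAX, went from 5.58 TPM untreated to 4.39 on day 5. On day 5 the deposited log2 differences of BMF, BNIP3L and MOAP1, at -0.44, -0.26 and -0.30, were not called. The rescaled ones of 0.68, 0.91 and 0.72 were called higher.

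XBP1, a plasma cell and endoplasmic reticulum stress factor, was at 1547 TPM untreated and 366 TPM on day 5, and ATF4, at 325 and 352 TPM, was called higher after rescaling only, at 1.34.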
